A study of Mus musculus with 22 samples.

Results

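Leukaemia inhibitory factor (LIF) signalling was followed through 7 genes: Lif (the ligand), Lifr and Il6st (the receptor chains LIFR and gp130), Jak1 (a receptor-bound tyrosine kinase), Stat3 (the transcription factor it activates) and Socs2 and Socs3 (feedback inhibitors). They were picked by symbol for their place in the pathway, with earlier results of these data known, from the 21881 symbols of a mouse RNA-seq count table, and all 7 had a row. LIF binds LIFR, which pairs with gp130, and the bound Janus kinases phosphorylate STAT3, which then enters the nucleus. In mouse ES cells this route sustains self-renewal through targets such as Klf4 and Tfcp2l1, and Socs3 is itself a STAT3 target whose product binds gp130 and shuts the signal down.

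The 22 libraries came from 8 blastocyst-stage embryos (embryonic day 3.5) and 7 cell lines. By Nanog genotype there were 4 null embryos (2 female, 2 male), 2 heterozygous embryos (1 female, 1 male) and 2 wild-type embryos (1 female, 1 male). NANOG is a homeobox protein that marks and maintains the epiblast, and the labels do not describe the null allele. The lines, all labelled wild type for Nanog, were 2 embryonic stem (ES) lines, 1 female and 1 male, in serum-free culture; 3 trophoblast stem (TS) lines, 2 female and 1 male; and 2 extraembryonic endoderm (XEN) lines, both male. ES, TS and XEN lines are in vitro models of the epiblast, the trophectoderm and the primitive endoderm, and no medium was named for the TS and XEN lines. Each line had 2 libraries from different passages, called technical replicates in the labels, which were summed so that a line counts once. Embryo RNA was amplified as cDNA before library construction and line RNA was not, so no test sets embryos against lines. Depth in mega-counts (M) was 19.4 ± 2.28 M in null, 19.0 ± 6.01 M in heterozygous and 27.9 ± 6.08 M in wild-type embryos (SD, n = 4, 2 and 2), and 8.20 to 23.7 M in the line libraries. Embryos and lines are named by sex and number (null F1 and F2 are female, M1 and M2 male), and their values are listed in the order F1, F2, M1, M2 or female, male for embryos, F1, M2 for ES lines, F1, F2, M3 for TS lines and M1, M2 for XEN lines. Levels are given as CPM, counts per 1000000 counts of the library.

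Counts of Nanog itself were 8, 7, 12 and 6 in the nulls, against 2038 and 791 in the heterozygous and 3238 and 3456 in the wild-type embryos. In the lines it averaged 642 CPM in ES, 1.40 CPM in TS and 0.228 CPM in XEN lines. Markers of each lineage matched the line labels. The ES and epiblast list summed to 6232 to 6818 CPM in ES libraries, against 267 to 617 CPM in TS and 8.19 to 12.7 CPM in XEN libraries. The trophectoderm list summed to 2472 to 7967 CPM in TS libraries and 759 to 1217 CPM in XEN libraries, and the primitive endoderm list to 2977 to 3870 CPM in XEN libraries.

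Upstream sequences are shown for Socs3 and Il6st, the members that the authors' deposited table of Nanog-regulated genes lists, both with the word DOWN. Each is the 250 bases before a RefSeq start site in GRCm38.p6, written in the direction of the gene. The Socs3 window is chr11:117969367-117969616 on the minus strand, and the Il6st window is chr13:112463820-112464069 on the plus strand. GENCODE M21 on the same assembly spans Socs3 as chr11:117966079-117970047, so the Socs3 window lies inside the gene as annotated there and is upstream only of the RefSeq start. Capitals mark matches to TTCNNNGAA, a spacing that STAT factors bind and that reads the same on both strands.

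Socs3: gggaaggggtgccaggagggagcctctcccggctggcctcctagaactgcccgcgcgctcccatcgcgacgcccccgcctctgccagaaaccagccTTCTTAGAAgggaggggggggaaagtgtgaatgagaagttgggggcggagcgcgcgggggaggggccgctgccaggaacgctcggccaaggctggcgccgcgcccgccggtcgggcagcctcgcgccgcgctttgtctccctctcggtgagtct
Il6st: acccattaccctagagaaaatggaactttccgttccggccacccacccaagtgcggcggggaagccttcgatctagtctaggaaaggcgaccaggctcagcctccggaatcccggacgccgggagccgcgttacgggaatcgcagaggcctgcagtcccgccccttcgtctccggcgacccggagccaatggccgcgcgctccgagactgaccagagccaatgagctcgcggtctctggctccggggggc

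The match in Socs3, TTCTTAGAA, begins 154 bases before the start site. Windows were found for 6 of the 7 members (Socs2 had none), and Socs3 was the only 1 of these 6 with a match. Of 32851 windows of the same length over all genes, 7.02% held the motif. Counted by gene, 8.13% of 27025 genes had a window with it. The stricter TTCCNGGAA, which TTCNNNGAA also covers, was in no member's window and in 0.913% of all windows. In mm9, the build of the counts, the authors' table places Socs3 at chr11:117827400-117830680 and Il6st at chr13:113254277-113297068.

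In the stem cell lines each lineage had its own combination of the 7 genes. Lifr was highest in XEN and lowest in TS lines, Socs2 was highest in ES and lowest in XEN lines, Lif was low in ES lines, and Il6st was lowest in TS lines. Jak1 was highest in TS lines and Stat3 in XEN lines, by at most 2.04-fold. Socs3 did not differ between lineages beyond the spread between lines. Of the 7 members, 5 passed the threshold between ES and TS lines, 4 between ES and XEN lines and 5 between TS and XEN lines (edgeR quasi-likelihood test over 14687 genes, Benjamini-Hochberg adjusted p under 0.05). Over all genes tested the shares past it were 41.3%, 45.1% and 36.7%, so a lineage difference is common in these lines whatever the gene. By direction, 3 members were higher and 2 lower in ES than in TS lines (20% and 21.3% of all genes), 1 higher and 3 lower in ES than in XEN lines (23.4% and 21.8%), and 2 higher and 3 lower in TS than in XEN lines (20.3% and 16.4%). In CPM the lines of both lineages did not overlap for 5, 6 and 5 members, beside 70.6%, 80% and 59.7% of all genes. CPM is scaled to library totals, while the fitted fold changes use a further scaling between lines (TMM), so the 2 can differ. Il6st and Jak1 did not overlap between ES and XEN lines in CPM, yet had fitted log2 fold changes of 0.11 and 0.06. The median log2 fold change over the members was -0.11, -0.45 and -0.63 in the same order of comparisons, beside -0.02, 0.05 and 0.02 over all genes. The 3 comparisons share their lines and are not independent. Both XEN lines are male and the fit has no sex term, so the part of sex in the comparisons with XEN lines was not tested. Culture was described for the ES lines alone, as serum-free, and its part in the differences between lineages was not tested either.

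**Figure D1:**
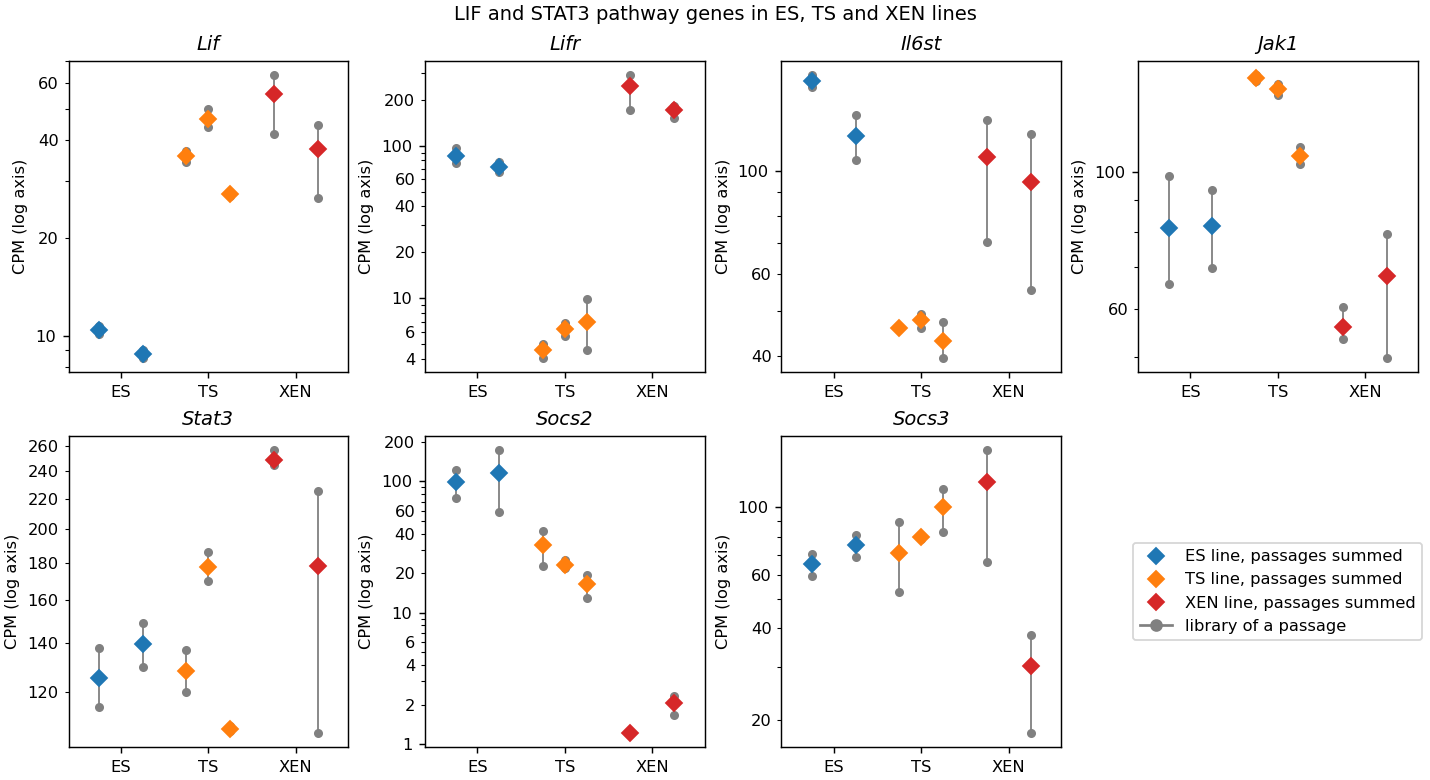
CPM (log axis, a different range in each panel) of the 7 genes in 2 ES, 3 TS and 2 XEN lines. Diamonds are lines with both passages summed and grey points joined by a bar are the passage libraries; Lifr is at 4.56 to 6.94 CPM in TS lines and Socs2 at 1.22 and 2.05 CPM in XEN lines, both far from the other lineages.

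Lif, the secreted ligand, stood at 10.4 and 8.78 CPM in the ES lines, at 35.7, 46.6 and 27.4 CPM in the TS lines and at 55.5 and 37.5 CPM in the XEN lines. Both ES lines lay below every TS and XEN line, while the TS and XEN lines overlapped. The log2 fold change was -1.98 ± 0.29 (SE) for ES against TS (edgeR adjusted p = 0.00225) and -2.61 ± 0.31 for ES against XEN (edgeR adjusted p = 0.00073). TS against XEN did not pass, at -0.63 ± 0.26 (edgeR adjusted p = 0.101).

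Lifr encodes the chain that binds LIF and lends the complex its specificity. It had 86.1 and 72.6 CPM in the ES lines, 4.56, 6.31 and 6.94 CPM in the TS lines and 245 and 170 CPM in the XEN lines. No line of a lineage overlapped another lineage, and all 3 comparisons passed. ES lines were 12.8-fold above TS lines (log2 3.67 ± 0.27 SE, edgeR adjusted p = 0.000193) and 3.31-fold below XEN lines (-1.72 ± 0.29, adjusted p = 0.00293). TS lines were 42.2-fold below XEN lines (-5.40 ± 0.29, edgeR adjusted p = 4.35e-05), a difference that ranked 53 by p among the genes tested.

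Il6st encodes gp130, the signal-transducing chain shared by the whole cytokine family. It had 156 and 119 CPM in the ES lines, 46.0, 47.8 and 43.2 CPM in the TS lines and 107 and 94.8 CPM in the XEN lines. The 3 TS lines lay close to each other and below all other lines. ES lines were 2.88-fold above TS lines (log2 1.53 ± 0.18 SE, edgeR adjusted p = 0.000921) and TS lines 2.67-fold below XEN lines (-1.42 ± 0.18, adjusted p = 0.00107). ES and XEN lines could not be told apart (0.11 ± 0.20, edgeR adjusted p = 0.676). Set against each other, the chains gave a ratio of Lifr to Il6st counts of 0.551 and 0.612 in ES lines, 0.0992, 0.132 and 0.161 in TS lines and 2.29 and 1.79 in XEN lines. Per kilobase of exon (GENCODE M21), Lifr averaged 7.64 CPM and Il6st 12.5 CPM in ES lines, 0.572 and 4.16 CPM in TS lines, and 20.0 and 9.20 CPM in XEN lines. On that scale Il6st was the more abundant chain in ES and TS lines and Lifr in XEN lines.

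Jak1, the kinase bound to gp130, had 81.2 and 81.6 CPM in the ES lines, 142, 136 and 106 CPM in the TS lines and 56.0 and 67.7 CPM in the XEN lines. Every TS line was above every other line. ES lines were 1.64-fold below TS lines (log2 -0.71 ± 0.17 SE, edgeR adjusted p = 0.0157) and TS lines 1.71-fold above XEN lines (0.77 ± 0.17, adjusted p = 0.0123). ES against XEN gave 0.06 ± 0.19 (edgeR adjusted p = 0.83). The ES-TS call was lost without ES line F1 (edgeR adjusted p = 0.108) or M2 (adjusted p = 0.114), and the TS-XEN call without XEN line M1 (adjusted p = 0.0797).

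Stat3, the transcription factor of the route, had 126 and 140 CPM in the ES lines, 128, 178 and 107 CPM in the TS lines and 249 and 178 CPM in the XEN lines. TS line F2, at 178 CPM, stood just below XEN line M2. ES lines were 2.04-fold below XEN lines (log2 -1.03 ± 0.26 SE, edgeR adjusted p = 0.0147) and TS lines 1.89-fold below them (-0.92 ± 0.23, adjusted p = 0.0181). ES against TS gave -0.11 ± 0.23 (edgeR adjusted p = 0.725). The ES-XEN call was lost without ES line F1, ES line M2 or XEN line M1 (edgeR adjusted p = 0.0911, 0.0722 and 0.0747), and the TS-XEN call without TS line F1 or XEN line M1 (adjusted p = 0.0543 and 0.115).

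The feedback inhibitors did not share a pattern. Socs2, best known for restraining growth hormone and STAT5 signalling, had 99.8 and 116 CPM in the ES lines, 32.6, 23.3 and 16.5 CPM in the TS lines and 1.22 and 2.05 CPM in the XEN lines. The lineages stood in the order ES, TS, XEN with no overlap. ES lines were 4.29-fold above TS lines (log2 2.10 ± 0.31 SE, edgeR adjusted p = 0.00225) and 52.1-fold above XEN lines (5.70 ± 0.42, adjusted p = 0.000116). TS lines were 12.1-fold above XEN lines (3.60 ± 0.37, edgeR adjusted p = 0.00052). Per kilobase of exon, Socs2 was the highest of the 7 genes in ES lines, at a mean of 40.0 CPM, against 8.94 CPM in TS and 0.606 CPM in XEN lines, where it was the lowest.

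Socs3, the inhibitor that acts on gp130 and its kinases, had 65.0 and 75.1 CPM in the ES lines, 71.0, 79.8 and 100 CPM in the TS lines and 121 and 30.2 CPM in the XEN lines. The XEN lines held both the highest and the lowest value. None of the 3 comparisons passed, with log2 fold changes of -0.33 ± 0.51, -0.45 ± 0.55 and -0.12 ± 0.50 for ES-TS, ES-XEN and TS-XEN in that order (SE, edgeR adjusted p = 0.623, 0.536 and 0.876). Both comparisons with XEN lines moved with single lines. Without XEN line M2, ES against XEN became -1.14 (edgeR adjusted p = 0.027), while without XEN line M1 it became 0.86 (adjusted p = 0.0809) and TS against XEN became 1.20 (adjusted p = 0.0361). Without TS line F1, TS against XEN became 0.0106 (edgeR adjusted p = 0.994).

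**Figure D2:**
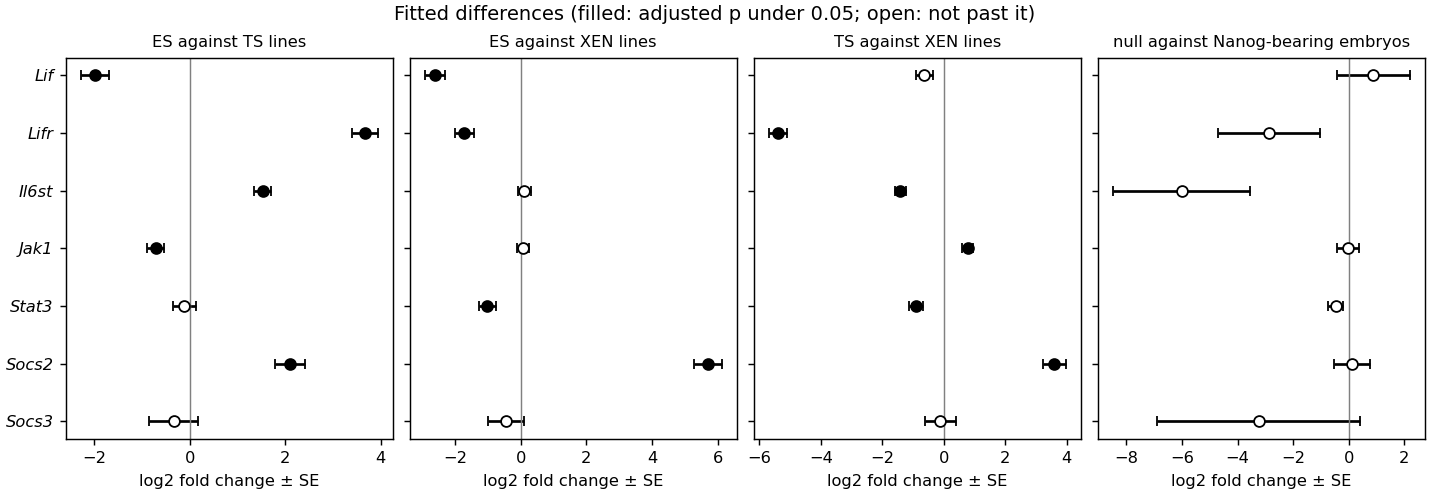
Fitted log2 fold changes with their SE for the 7 genes in the 3 line comparisons and in null against Nanog-bearing embryos; filled points have an adjusted p under 0.05. Of the 21 line values 14 are filled, among them Lifr at -5.40 (TS against XEN) and Socs2 at 5.70 (ES against XEN), and none of the embryo values is.

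The passages of a line set a floor on these comparisons. The largest gap between passages was Socs2 in ES line M2, at 173 and 58.3 CPM, a 2.96-fold difference that 4.84% of genes exceeded in that line. In XEN line M1, Socs3 was at 66.0 and 154 CPM, and in XEN line M2 at 38.0 and 18.2 CPM. In XEN line M2 all 7 members were lower in the second passage, among them Il6st at 120 and 55.6 CPM and Stat3 at 226 and 106 CPM. Over all genes 58.7% were lower in that passage, with a median log2 ratio of -0.17, and this line had the largest difference between passages beyond counting noise. Using its first passage alone, the same numbers of members passed in the ES-XEN and TS-XEN comparisons (4 and 5). In XEN line M1, Lif, Lifr, Il6st and Socs3 were all higher in the second passage, at 63.5, 289, 129 and 154 CPM, against 41.9, 171, 70.3 and 66.0 CPM in the first.

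Markers of cells that a culture could also hold differed between lineages. The 8 fibroblast genes summed to 4.99 to 7.33 CPM in ES libraries, 11.8 to 222 CPM in TS libraries and 0.158 to 11.1 CPM in XEN libraries. Of them Col3a1, Dcn, Lum and Postn were at 0 in every ES library, and Col3a1, Lum and Twist2 at 0 in every XEN library. All 8 had counts somewhere in the TS libraries. Col1a1, Col1a2, Thy1 and Col3a1 reached 86.9, 79.8, 35.7 and 8.48 CPM there, and Postn and Twist2 7.13 and 5.62 CPM. Dcn and Lum reached at most 0.578 and 0.0964 CPM. The 8 blood and macrophage genes summed to 409 to 704 CPM in ES libraries, 229 to 950 CPM in TS libraries and 8.91 to 22.5 CPM in XEN libraries. Nearly all of it in ES libraries was Laptm5 (402 to 693 CPM), with Ptprc, Lyz2 and Tyrobp at 0. Laptm5 was also the largest part in TS libraries (108 to 856 CPM). There Csf1r was at 5.12 to 99.1 CPM, Cd68 at 23.6 to 36.1 CPM and Lyz2 at 0.331 to 25.6 CPM. In XEN libraries Csf1r was at 3.25 to 17.5 CPM and Cd68 at 1.18 to 4.98 CPM, with Laptm5 and Lyz2 at most 0.380 and 0.158 CPM. All 8 had counts somewhere in the TS and in the XEN libraries, but some of them only a few. Ptprc, Tyrobp and Fcer1g reached at most 0.0829, 0.675 and 0.289 CPM in TS libraries. In XEN libraries they reached at most 0.0512, 0.0845 and 0.869 CPM. The part of such cells in the line differences was not tested. In bulk RNA, fewer cells of a type and less RNA per cell cannot be told apart.

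Around the 7 genes, 50 further genes of the pathway were listed, of which 49 had a row and 45 could be tested in lines. Of these 45, 10 were higher and 14 lower in ES than in TS lines, 12 higher and 7 lower in ES than in XEN lines, and 10 higher and 5 lower in TS than in XEN lines. Over all genes tested, 20% were higher and 21.3% lower in ES than in TS lines, 23.4% and 21.8% in ES than in XEN lines, and 20.3% and 16.4% in TS than in XEN lines. The counts of each list that follows stand beside these same shares, and nothing particular to a list is read from them. The 45 genes' median log2 fold changes were 0.07, 0.14 and 0.27, beside the all-gene medians given above.

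Among the other ligands, 1 of 4 tested genes was higher in ES than in TS and than in XEN lines, and none passed between TS and XEN lines. The 1 was Osm, the ligand oncostatin M, at 17.9 and 7.14 CPM in ES lines, 0.0918, 0.222 and 0.408 CPM in TS lines and 0.0797 and 0 CPM in XEN lines (edgeR adjusted p = 0.00292 against TS and 0.0022 against XEN). Both ES lines were far above the others. Il6 and Il11 had at most 7 and 12 counts in any line and were not tested.

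The receptor chains that pair with gp130 for other ligands were divided among the lineages. Of 6 tested, 1 was higher and 3 lower in ES than in TS lines, 2 higher and 1 lower in ES than in XEN lines, and 4 higher and 1 lower in TS than in XEN lines. Il6ra, the interleukin-6 receptor, had 26.3 and 14.3 CPM in ES lines and 7.53, 27.1 and 15.7 CPM in TS lines, and 1 count in each XEN line. Osmr, the oncostatin M receptor, had 0.172 and 0.0529 CPM in ES lines, 2.75, 6.40 and 6.63 CPM in TS lines and 0.239 and 0.155 CPM in XEN lines. TS lines were the lowest in Lifr and the highest in Osmr, at 4.56 to 6.94 CPM of Lifr and 2.75 to 6.63 CPM of Osmr. Whether either chain replaces the other was not tested. Il11ra1, the interleukin-11 receptor, had 1.72 and 1.59 CPM in ES lines, 22.9, 21.6 and 30.5 CPM in TS lines and 10.4 and 13.1 CPM in XEN lines. Cntfr, the ciliary neurotrophic factor receptor, had 2.12 and 4.23 CPM in ES lines, 17.2, 15.2 and 8.67 CPM in TS lines and 0.0266 and 0.373 CPM in XEN lines.

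Of 3 other Janus kinases, 1 was higher and 1 lower in ES than in TS lines, and 1 was lower both in ES and in TS than in XEN lines. Jak2 was lower in ES than in TS lines by -0.72 ± 0.20 log2 units (SE), in ES than in XEN lines by -1.72 ± 0.22 and in TS than in XEN lines by -0.995 ± 0.19 (edgeR adjusted p = 0.024, 0.000913 and 0.00633). Of 6 other STAT genes, 1 was higher and 1 lower in ES than in TS lines, 1 higher in ES than in XEN lines, and none passed between TS and XEN lines. The higher one was Stat4, a STAT best known from lymphocytes, with 7.40 and 8.94 CPM in ES lines and at most 0.222 CPM in any TS or XEN line.

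Of 12 other negative regulators, 3 were higher and 4 lower in ES than in TS lines, 3 higher and 2 lower in ES than in XEN lines, and 1 higher and 1 lower in TS than in XEN lines. Cish, a STAT5-induced inhibitor, had 2.24 and 3.91 CPM in ES lines, 13.6, 15.2 and 16.9 CPM in TS lines and 20.0 and 17.7 CPM in XEN lines. Cish was lowest in the lineage where its relative Socs2 was highest. Socs1 had 2.75 and 3.81 CPM in ES lines, 8.69, 12.4 and 10.5 CPM in TS lines and 0.638 and 1.74 CPM in XEN lines, and passed between TS and XEN lines (log2 2.87 ± 0.55 SE, edgeR adjusted p = 0.00615). Pias2, a STAT-binding SUMO ligase, had 237 and 245 CPM in ES lines, 74.1, 73.2 and 79.2 CPM in TS lines and 77.3 and 82.6 CPM in XEN lines.

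Of 5 adaptors that link gp130 to the ERK and PI3K branches, none was higher and 3 were lower in ES than in TS lines, 1 was higher and 1 lower in ES than in XEN lines, and 2 were higher in TS than in XEN lines. Ptpn11, the phosphatase SHP2 that docks on gp130, had 112 and 109 CPM in ES lines, 233, 290 and 192 CPM in TS lines and 247 and 189 CPM in XEN lines. Grb2, an adaptor to RAS, had 118 and 107 CPM in ES lines, 213, 201 and 184 CPM in TS lines and 80.0 and 91.3 CPM in XEN lines, highest in TS lines.

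Of 9 measured targets of LIF and STAT3 in ES cells, 3 were higher and 2 lower in ES than in TS lines, 4 higher and 2 lower in ES than in XEN lines, and 3 higher and 2 lower in TS than in XEN lines. Klf4, a pluripotency factor, had 702 and 757 CPM in ES lines, 7.59, 11.3 and 12.0 CPM in TS lines and 166 and 170 CPM in XEN lines. Its order over the lineages, ES, XEN, TS, was not that of Lifr (XEN, ES, TS) or Stat3. Gbx2, a homeobox gene, had 24.7 and 26.8 CPM in ES lines, 9.82, 5.86 and 5.13 CPM in TS lines and 0.292 and 0.0621 CPM in XEN lines. The members that were lower in ES lines were Myc and Junb, growth and immediate early factors that many signals induce. Myc had 20.8 and 16.0 CPM in ES lines, 105, 83.4 and 129 CPM in TS lines and 115 and 130 CPM in XEN lines, and Junb had 12.0 and 12.2 CPM in ES lines, 72.4, 87.6 and 150.5 CPM in TS lines and 57.6 and 25.6 CPM in XEN lines.

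**Figure D3:**
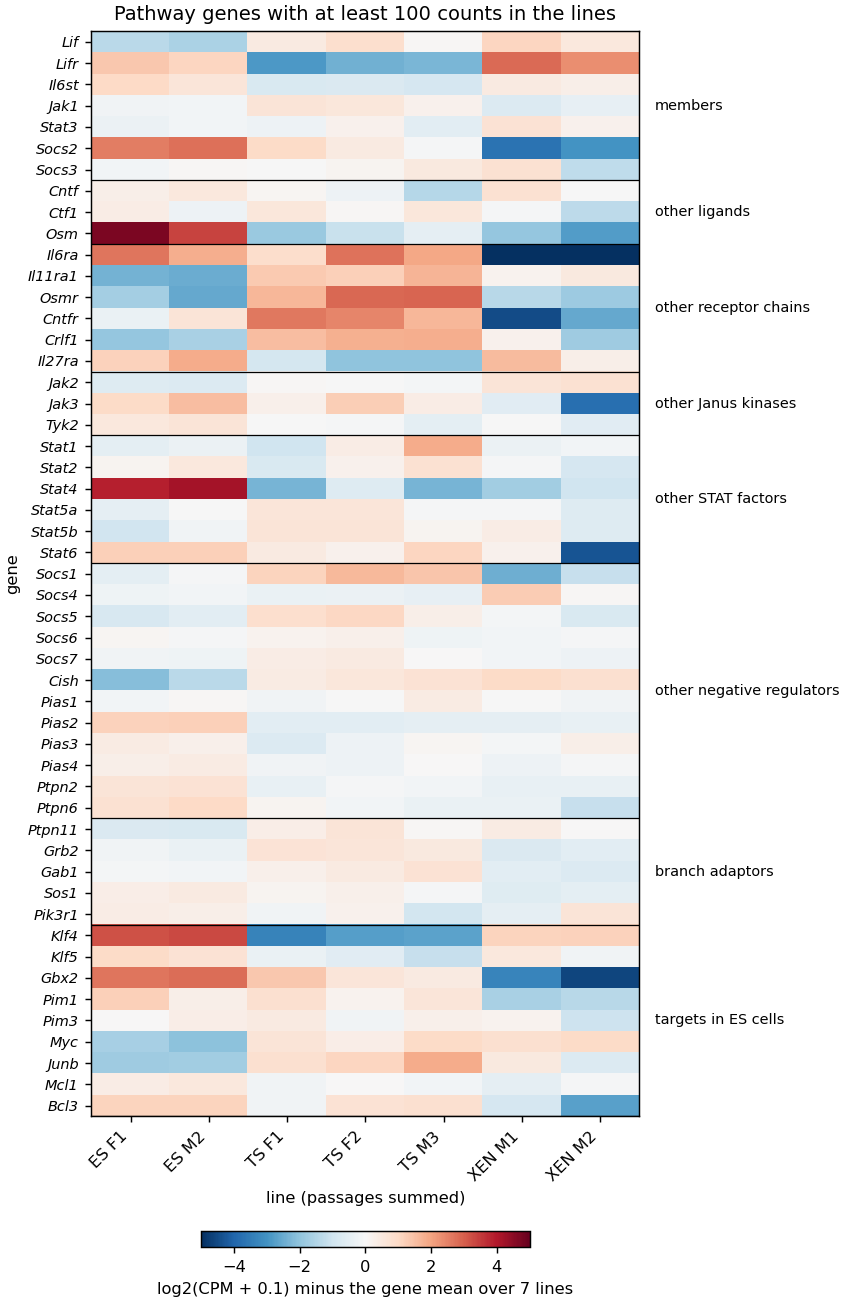
Heat map of log2(CPM + 0.1) minus the gene's mean over the 7 lines, for members and further pathway genes with at least 100 counts over the lines, grouped by role; columns are lines with passages summed. Lifr and Il6ra run opposite in TS and XEN lines (TS low and XEN high for Lifr, the reverse for Il6ra), and Klf4, Osm and Stat4 are highest in both ES lines.

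Genes most like a member were taken by Pearson's r of log2 levels over the 7 lines, given as a description. For Lifr they were Nynrin (r = 0.995), Tbl2 (0.994) and Dcaf15 (0.992), for Socs2 Ifitm2 (0.996), Rbpj (0.991) and Mrpl1 (0.987), and for Il6st Cryzl1 (0.985), Sms (0.984) and Sall1 (0.983). For Lif they were Gosr1 (0.997), Nomo1 (0.994) and Slc1a4 (0.993), for Jak1 Mtap (0.985), Utp11l (0.982) and Nlk (0.981), and for Stat3 Rab24 (0.989), Creld2 (0.989) and Adam17 (0.984). Socs3 had the weakest nearest gene, Aaas (0.947), before Sec23b (0.896) and Tnks1bp1 (0.889). The 7 points fall into 3 lineages, so any gene that differs between lineages in the same order has a high r.

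In the embryos, Il6st was close to absent in all 4 Nanog nulls and present in all 4 Nanog-bearing embryos, and Lifr and Socs3 were low in most nulls. Every member but Il6st overlapped between null and Nanog-bearing embryos, Lifr and Socs3 included, although all nulls lay below both wild-type embryos in Stat3. None of these differences passed once adjusted over all genes. In null against Nanog-bearing embryos (the mean of heterozygous and wild type), 0 of 7 members passed by edgeR's quasi-likelihood test or by DESeq2, and 1, Il6st, had an unadjusted p under 0.05. Of the 12965 genes tested 0.0154% passed by edgeR, and 4.97% had an unadjusted p under 0.05. The median log2 fold change over the members was -0.47, with 2 higher and 5 lower, against a median of -0.05 over all genes, of which 47.2% were higher.

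The receptor chains were low throughout in embryos. Il6st counts were 0, 0, 1 and 7 in the nulls (0, 0, 0.0520 and 0.350 CPM), against 134 and 13 counts in the heterozygous (5.76 and 0.880 CPM) and 80 and 208 counts in the wild-type embryos (3.39 and 6.45 CPM). It was the only 1 of the 7 members whose values did not overlap between null and Nanog-bearing embryos, which held for 4.21% of all genes tested in the lower and 5.32% in either direction. In total, 8 counts in nulls against 435 in Nanog-bearing embryos came to a level 44.9-fold lower after scaling to library totals, with a 95% counting interval of 22.6 to 105 that covers counting error only. The fitted log2 fold change was -6.02 ± 2.47 (SE, edgeR adjusted p = 0.931). Fitted against wild type alone it was -5.90 ± 2.44, and against heterozygous alone -6.13 ± 2.89 (edgeR adjusted p = 1 in both).

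Lifr counts were 3, 11, 2 and 10 in the nulls (0.183, 0.503, 0.104 and 0.500 CPM), against 6 and 53 in the heterozygous (0.258 and 3.59 CPM) and 155 and 42 in the wild-type embryos (6.56 and 1.303 CPM). The heterozygous female fell within the range of the nulls, and the other 3 Nanog-bearing embryos lay above it. The counts came to 8.13-fold lower in nulls (counting interval 5.42 to 12.7, which covers counting error only and not the spread between embryos). The fitted log2 fold change was -2.88 ± 1.84 (SE, edgeR adjusted p = 0.944).

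Socs3 counts were 0, 1, 118 and 0 in the nulls (0, 0.0457, 6.13 and 0 CPM), against 119 and 34 in the heterozygous (5.11 and 2.30 CPM) and 174 and 69 in the wild-type embryos (7.36 and 2.14 CPM). Null male M1 held 118 of the 119 null counts and stood above 3 of the 4 Nanog-bearing embryos. The fitted log2 fold change was -3.23 ± 3.65 (SE, edgeR adjusted p = 0.998), and -7.79 without that embryo. In that same embryo Il6st had 1 count. Il6st and Socs3 are both listed as DOWN in the authors' deposited table, among 71 genes with that word of 78 in all. None of the other 5 members and none of the further pathway genes is listed. That table was drawn from these embryos by a rule that is not stated, so it is no independent evidence of direction.

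Low counts in the nulls were not particular to these genes. Among genes that averaged at least 5 CPM in the other 7 embryos, 570, 300, 133 and 809 had 3 counts or fewer in null F1, F2, M1 and M2, against 68 and 45 in the heterozygous and 40 and 41 in the wild-type embryos. That set held 9170 to 9282 genes, depending on the embryo. Il6st, Lifr and Socs3 averaged under 5 CPM and were not in it, so these numbers do not cover genes at their level. The part of this loss of transcripts in the Il6st, Lifr and Socs3 results was not tested. Without F1 and M2, the 2 nulls with the most such genes, the fitted log2 fold change was -7.02 for Il6st, -3.31 for Lifr and -0.48 for Socs3. The epiblast marker list summed to 2457 to 4596 CPM in null, 3062 to 3654 CPM in heterozygous and 3835 to 3967 CPM in wild-type embryos. Dppa5a was its largest part (1307 to 3618 CPM in nulls). Fgf4 was at 0 to 0.0520 CPM in null, 0.0677 to 0.688 CPM in heterozygous and 2.92 to 15.5 CPM in wild-type embryos. Tdgf1 was at 29.5 to 182, 127 to 189 and 224 to 262 CPM in that order. Nulls overlapped wild type in Pou5f1, Zfp42, Esrrb and Dppa5a. The primitive endoderm list summed to 1125 to 1947, 1513 to 1695 and 1465 to 2039 CPM, and the trophectoderm list to 2234 to 7994, 5597 to 6144 and 7484 to 7934 CPM, in the same order of genotypes. Of the endoderm genes, Pdgfra was at 4.57 to 39.2 CPM in null and 45.5 to 112 CPM in wild-type embryos. Gata4 was at 0 to 3.38 CPM in null and 4.68 to 9.10 CPM in wild-type embryos. Heterozygous embryos overlapped the nulls in both genes. Nulls overlapped wild type in Gata6, Sox17, Sox7 and Dab2, the last the largest part of that sum. The fibroblast list summed to 0 to 6.25 CPM in null, 0.0430 to 0.339 CPM in heterozygous and 0.0310 to 0.0423 CPM in wild-type embryos, and 7 of its 8 genes were detected in nulls, 1 in heterozygous and 2 in wild-type embryos. Null M1 had 0 CPM of all 8. The blood and macrophage list summed to 4.40 to 11.2, 4.64 to 19.2 and 11.2 to 12.3 CPM in that order, with Tyrobp at 0 throughout. The part of these cells was not tested.

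**Figure D4:**
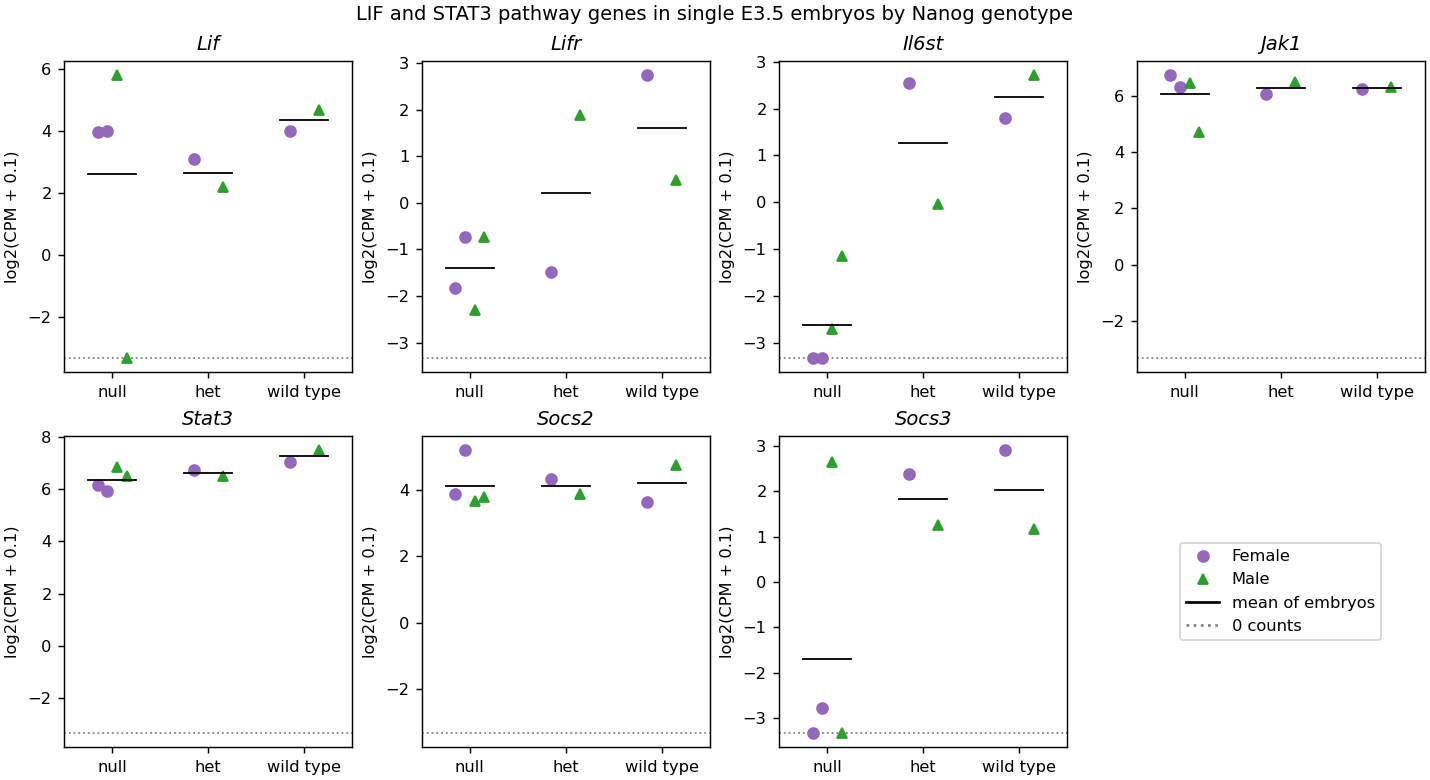
log2(CPM + 0.1) of the 7 genes in single embryos by Nanog genotype (4 null, 2 heterozygous, 2 wild type); circles are female, triangles male, black bars the mean over embryos and the dotted line 0 counts. Il6st is the only panel in which all nulls lie below all other embryos, and Socs3 shows null M1 at 6.13 CPM apart from the other nulls.

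Lif counts were 252, 347, 1062 and 0 in the nulls (15.4, 15.9, 55.2 and 0 CPM), against 196 and 66 in the heterozygous (8.42 and 4.47 CPM) and 375 and 812 in the wild-type embryos (15.9 and 25.2 CPM). The nulls held both the highest and the lowest value, and null M2, with 0 counts, was also the library with the most missing genes. The log2 fold change was 0.89 ± 1.31 (SE, edgeR adjusted p = 0.998), and -1.16 without null M1.

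Stat3 had 71.8, 60.6, 116 and 89.8 CPM in the null embryos, against 105 and 90.7 CPM in the heterozygous and 131 and 179 CPM in the wild-type embryos. All 4 nulls were below both wild-type embryos, while the heterozygous embryos lay within the null range. Against wild type the log2 fold change was -0.77 ± 0.34 (SE, edgeR adjusted p = 1), and against Nanog-bearing embryos -0.47 ± 0.28 (edgeR adjusted p = 0.944). Against wild type 0 of 7 members passed and 2, Il6st and Stat3, had an unadjusted p under 0.05, beside 0.0154% and 3.86% of all genes. Against heterozygous embryos 0 members passed by edgeR or DESeq2 and 0 had an unadjusted p under 0.05, beside 0.00771% and 2.75% of all genes.

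Jak1 had 108, 81.3, 89.0 and 26.2 CPM in the null embryos, against 68.2 and 91.1 CPM in the heterozygous and 76.6 and 80.4 CPM in the wild-type embryos. Apart from null M2 the 8 embryos lay within 68.2 to 108 CPM, and the log2 fold change was -0.01 ± 0.39 (SE, edgeR adjusted p = 1). Socs2 had 14.5, 36.4, 12.5 and 13.6 CPM in the null embryos, against 20.0 and 14.5 CPM in the heterozygous and 12.3 and 26.9 CPM in the wild-type embryos. Its groups overlapped fully apart from null F2, the highest embryo, with a log2 fold change of 0.10 ± 0.65 (edgeR adjusted p = 1).

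Heterozygous against wild-type embryos and female against male embryos gave 0 members past the threshold by edgeR and by DESeq2, and 0 with an unadjusted p under 0.05. Over all genes 0% and 0.00771% passed by edgeR, and 0.825% and 2.95% had an unadjusted p under 0.05. The interaction of null status with sex passed for no gene, and its smallest unadjusted p among the members was 0.0651, for Socs3.

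Of the 49 further pathway genes, 40 could be tested in embryos. Between null and Nanog-bearing embryos 0 of these 40 passed (edgeR), beside 0.0154% of all genes. The median log2 fold change of the 40 was -0.33, beside -0.05 over all genes. Ctf2 had the smallest p of the ligands, with 0 counts in all 4 nulls, 50 and 23 in the heterozygous and 19 and 0 in the wild-type embryos (edgeR adjusted p = 0.931). Klf4 had the smallest p of the ES cell targets, with a log2 fold change of -1.11 ± 1.10 (SE, edgeR adjusted p = 0.991), and Socs5 that of the negative regulators, at -3.50 ± 2.07 (adjusted p = 0.944).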

How the data were processed

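RNA-seq counts of 22 mouse libraries were used. The authors deposited raw whole-number counts per gene symbol, not normalized, for 21881 symbols. The genome build was mm9 and the tools TopHat 1.3.1 and edgeR, per the submitters' processing notes. How reads were counted, with which annotation and with or without strand, is not stated, so reads of antisense or overlapping genes could not be told apart. Other content was the direction word (UP or DOWN) that the authors deposited for their Nanog-regulated genes; its 22 value columns, of no stated unit, were not used.

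Members and gene lists were chosen with earlier results of these data known. All genes were fitted with edgeR 4.0.16 in R 4.3.3 (TMM, filterByExpr, robust quasi-likelihood test, Benjamini-Hochberg over all genes, threshold 0.05). The 8 embryos were fitted with genotype and sex (12965 genes, biological coefficient of variation 0.979), and the 7 lines, passages summed, with lineage (14687 genes, 0.346). Embryo replicate labels carry only sex, and nothing says that embryos of a genotype came from separate litters. Standard errors were derived from the F statistic as |log2 fold change|/√F. Fits were tested on simulated data. CPM and count ratios use library totals, and counting intervals are exact at 95%. Named beside the members were, per list and comparison, up to 3 called genes by smallest p, or the smallest-p gene where none passed, narrowed in the text to those with the clearest levels after their values were seen. Il6, Il11, Laptm5 and the other single fibroblast and blood marker genes were named after their values were seen. Alternatives were DESeq2 1.42.0 (its size factors and its test), no filter on low counts, no sex term, 14 line libraries with a replicate block, each embryo or line left out and, chosen after seeing the data, null embryos F1 and M2 left out together and the first passage of XEN line M2 alone. Upstream windows are RefSeq, GRCm38.p6, and exon lengths GENCODE M21, builds other than that of the counts.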

Additional observations from a re-analysis of the deposited data

Results flagged for a closer look

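Dixon's 95% limit flags about 1 in 20 groups of normally distributed values. Raw CPM, here partly near 0, need not be so distributed, so no comparison with chance is drawn. In 14 groups of 4 embryos, 1 embryo stood apart from the other 3 by more than that limit in 3. All 3 were null embryos: null F2 had 36.4 CPM of Socs2, against 12.5 to 14.5 CPM in the other nulls. Null M1 had 6.13 CPM of Socs3, against 0 to 0.0457 CPM in the other nulls. Null M2 had 0.350 CPM of Il6st, which is 7 counts, against 0 to 0.0520 CPM in the other nulls.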

How the results depend on the processing

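The number of members past the threshold was 0 in all 5 embryo comparisons under each alternative run for them; leaving out null F1 and M2 together was run for null against Nanog-bearing embryos alone. In lines it was 5, 4 and 5 (ES against TS, ES against XEN, TS against XEN) with DESeq2, its size factors, no filter or the replicate block, and 4 to 5, 3 to 5 and 4 to 5 when a line was left out. The technical replicate numbers name passages within a line and do not pair lines, so a block on them does not join the passages of a line. With the replicate block the passages of a line therefore entered as separate samples, although they are not independent. The members and genes past the threshold in that fit are thus no check on the fit with passages summed. The part of this in its larger numbers of genes was not tested. With the 14 libraries and the replicate block, 1 member changed sign, Socs3 in TS against XEN (log2 0.0473), and 8025, 8215 and 7275 genes passed, against 6063, 6630 and 5385. Jak1 in null against Nanog-bearing embryos changed sign to 0.0203 with DESeq2 size factors, 0.0203 with DESeq2, 0.0265 without sex and 0.178 without null F1 and M2. With the first passage of XEN line M2 alone, ES against XEN gave -0.0301 for Il6st and -0.0375 for Jak1.

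Leaving out 1 embryo, null against Nanog-bearing gave -0.22 to 0.31 for Jak1, -0.33 to 0.65 for Socs2, -1.16 to 1.38 for Lif, -7.53 to -4.52 for Il6st, -3.51 to -1.15 for Lifr and -7.79 to -1.03 for Socs3, and null against heterozygous -0.60 to 0.32 for Stat3. Leaving out 1 line gave -0.230 to 0.0876 for Stat3 in ES against TS, -0.13 to 0.31 for Il6st, -0.0893 to 0.195 for Jak1 and -1.14 to 0.86 for Socs3 in ES against XEN, and -0.80 to 1.20 for Socs3 in TS against XEN. With a single line left, its spread is assumed to be that of the other lineages. The cause of these changes was not tested.

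The genes past the threshold in null against Nanog-bearing embryos were 2, 50 without the filter and 87 with DESeq2; against wild type 2, 37 and 96; against heterozygous 1, 19 and 77; heterozygous against wild type 0, 4 and 76; and female against male 1, 24 and 61. Without ES line F1 or M2, 2429 or 2827 genes passed in ES against TS and 4071 or 3997 in ES against XEN. In null embryos Il6st had 0 to 7 and Lifr 2 to 11 counts, so those levels rest on very few reads.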
